A study of Mus musculus with 24 samples.

Results

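The clustered core histone genes code for the histone proteins H2A, H2B, H3 and H4 and lie side by side in gene clusters. Members were chosen by name alone: a platform symbol of H2ac, H2bc, H3c or H4c followed by a number, or an older Hist symbol of the same classes, with the MHC symbols that start with H2- left out. Of the 24011 genes with a single symbol, 31 were members: 9 H2A genes, 12 H2B genes, 7 H3 genes and 3 H4 genes. RefSeq placed 25 of them on chromosome 13 and 6 on chromosome 3, and it names 58 mouse genes by this pattern.

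The values came from 24 expression arrays of heart total RNA from C57BL/6J mice aged 8 weeks, none with a genotype or transgene named in the labels. Mice had their middle cerebral artery blocked, a model of ischemic stroke in the brain abbreviated MCAO, or a sham operation, and hearts were taken 24 h or 72 h later, with 6 arrays in each of the 4 groups. The labels give no sex or heart region and do not say that each array was a separate mouse, so the p-values measure the spread between these arrays, which may be technical. The question was what a stroke in the brain changes in the heart.

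Core histones form the nucleosome, the spool around which DNA is wound: H3 and H4 make its centre, and pairs of H2A with H2B complete it. The clustered genes are known as replication-dependent: they are transcribed mostly in S phase, when DNA is copied, and most of their mRNA ends in a stem-loop bound by SLBP and not in a poly(A) tail. Cardiomyocytes of the adult heart seldom divide, so dividing cells there are mainly other cell types. The labels do not say whether mRNA without a poly(A) tail was taken up in the labelling of these arrays.

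All values are log2 expression as deposited, and a change is MCAO minus sham on that scale. Because each probe has its own brightness, changes were read between groups within 1 gene. Levels of different genes were set side by side only to describe dim signal and the tissue and to pick the highest mean of a class. List means were compared between arrays. The tissue label was borne out: the mean of 10 cardiomyocyte markers lay between 12.3 and 12.7 on every array. Arrays correlated with their own group at a mean r of 0.983 to 0.994 outside the MCAO 24 h group and of 0.963 to 0.980 within it, where replicates 6 (0.963) and 5 (0.968) were lowest. As a description of dim signal, 13 members had a mean above 3.95, the 95th percentile of 1348 olfactory and vomeronasal receptor genes, and 18 had a mean within that range. The members nearest that line were H2ac1 (mean 3.90) below it and H2bc3 (mean 4.28) above it. Several members are near-identical copies, and RefSeq lists H2bc7, H2bc13 and H2bc15 as names of one another, likewise H2bc4, H2bc6 and H2bc8, the 3 H4 genes, H3c1, H3c8, H3c10 and H3c11, and H3c7, H3c14 and H3c15. Probe sequences were not analysed here, so a value given for such a gene may include its copies. In whole-heart RNA, fewer cells of a type and less RNA per cell cannot be told apart.

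RefSeq promoter windows (build GRCm38.p6) were available for 27 members, with 28 windows because H2bc6 has 2, and the 150 bases before the transcription start were searched on both strands for 4 short motifs. They were CCAAT, the CCAAT box; TATAAA, the TATA box; TTTGCAT, the end of the octamer known from H2B promoters; and GGTCCG, a run from the HINFP site known from H4 promoters. CCAAT was found in 23 of the 28 windows (82.1%), beside 24.5% of all 32851 windows of that length. The 28 windows are not all separate. Those of H2ac22 and H2bc22, of H2bc8 and H2ac8, and of H2bc1 and H2ac1 overlap on opposite strands, so 1 match can count for both partners. Counted by member, with a match in any window of it, CCAAT was in 9 of 9 H2A, 10 of 10 H2B, 3 of 5 H3 and 0 of 3 H4 members. TATAAA was in 14 of the 28 windows (beside 7.57% of all windows), TTTGCAT in 9 (32.1%, beside 2.36%), all of H2A or H2B genes, and GGTCCG in 3 (10.7%, beside 4.42%), of which 2 were H4 windows. The matches of different motifs overlapped 1 time, GGTCCG with CCAAT in H3c11. Each match is a description of letters and not of a bound site.

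**Figure D1:**
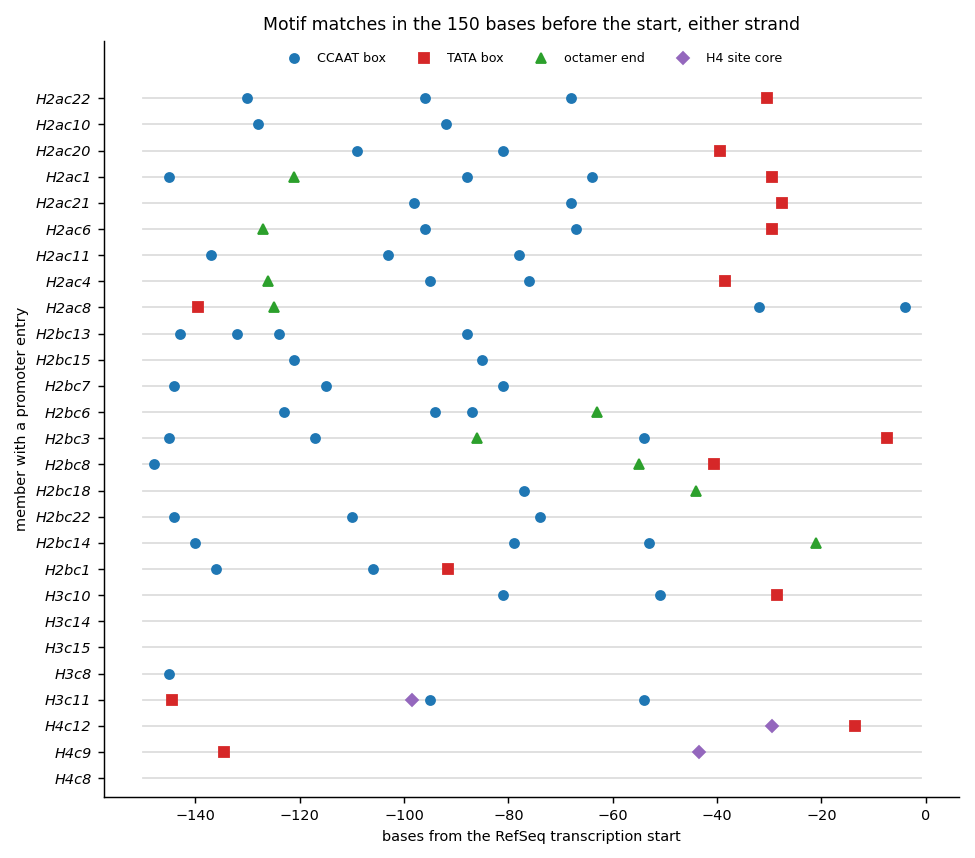
Positions of the 4 motifs in the 150 bases before the RefSeq start of the 27 members with a promoter entry. The horizontal axis is the distance from the start in bases, each row is 1 member (the row of H2bc6 joins its 2 windows), grouped as H2A, H2B, H3 and H4, and each mark is a match on either strand. CCAAT marks appear in every H2A and H2B row and in none of the 3 H4 rows.

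The 13 members above the receptor range were mostly lower after MCAO, and more of the family was called at 72 h than the share of all genes. At 24 h, 4 of the 31 members (12.9%) were lower at an adjusted p of 0.05 or less in the limma fit over all genes, beside 10.8% of all genes tested, and 1 (3.23%) was higher, beside 11.1%. The share of members called lower at 24 h was thus near that of all genes. At 72 h, 4 members (12.9%) were lower, beside 1.19% of all genes, and 0 were higher, beside 1.17%. In either direction, 21.8% of all genes were called at 24 h and 2.35% at 72 h. H2bc13, H2bc4 and H4c9 fell at both times (3 of 31, 9.68%, beside 0.641% of all genes). H2ac10 passed the threshold at 24 h alone and H2bc7 at 72 h alone, and H2bc18 rose at 24 h. No difference between the times passed the test for any of these, so the calls do not show that the times differ.

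Leaving out arrays changed the counts but not a direction of a called member. The 24 h count of 5 became 3 without MCAO 24 h replicate 2, 3 or 5 or sham 24 h replicate 1 or 4. MCAO 24 h replicates 5 and 6 had the lowest correlations; without both, 5 members were called at 24 h, of which 3 were shared with the full set. With the 24 h arrays fitted alone, H2bc13 was the 1 member called of 31, beside 9.14% of all genes. With the 72 h arrays fitted alone, 5 of 31 members were called, beside 5.87% of all genes. With a covariate taken from the receptor genes (their first principal component), 0 members and 316 of all genes were called at 24 h, against 5237 of all genes without it, while 5 members were called at 72 h, the 4 called before and H2bc21. The 72 h count of 4 became 2, H2bc13 and H4c9, without MCAO 72 h replicate 2 or 4 or sham 72 h replicate 2.

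Over all 31 members the shifts were small. At 24 h, 20 of 31 changes (64.5%) were below 0, beside 48.1% of all genes, and at 72 h 27 of 31 (87.1%), beside 49.2%. Both changes were below 0 in 18 members (58.1%), beside 27.8% of all genes. The median change was -0.07 at 24 h and -0.14 at 72 h, beside 0.0082 and 0.0015 over all genes. The 13 members above the receptor range had medians of -0.22 and -0.63 with 13 and 12 changes below 0, and the 18 within it had medians of 0.02 and -0.05 with 7 and 15. The shares given are over all genes, and the share below 0 among genes of like brightness was not computed. With dim genes left out, 28.6% of 12006 genes were called at 24 h and 5.87% at 72 h. That fit keeps 13 of the 31 members, and of these 13, 4 were called at 24 h and 5 at 72 h. All 6 MCAO arrays lay below all 6 sham arrays for 1 member at 24 h (3.23%, beside 2.65% of all genes) and for 4 members at 72 h (12.9%, beside 1.77%): H2bc13, H2bc4, H4c9 and H2bc21. All MCAO arrays lay above all sham arrays for 0 members at either time, beside 2.88% of all genes at 24 h and 1.77% at 72 h.

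**Figure D2:**
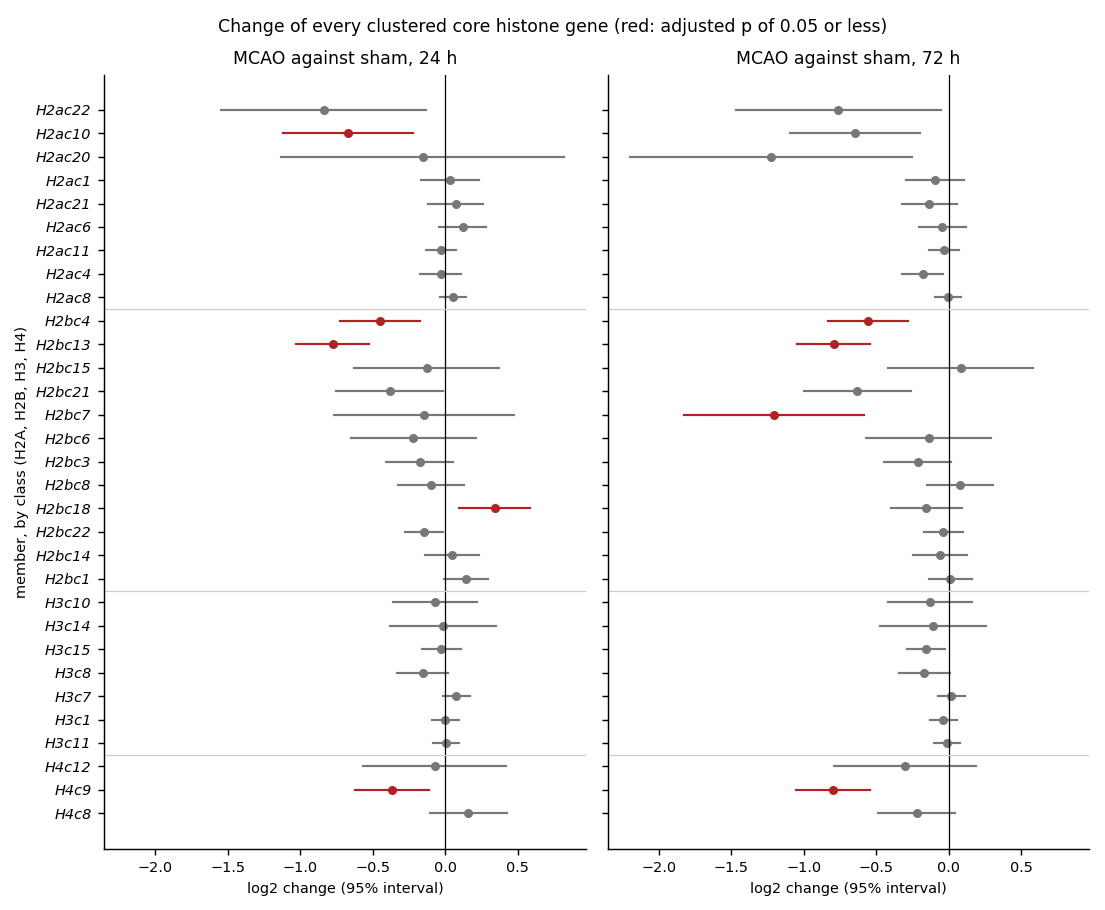
Log2 change (MCAO minus sham) of all 31 members at 24 h (left) and 72 h (right), with the 95% interval of the limma fit over 6 arrays a group. Rows are grouped by class, with the members of higher mean first in each class, and red marks an adjusted p of 0.05 or less. Below 0 lie 20 points at 24 h and 27 at 72 h.

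Of the 9 H2A genes, 1 fell at 24 h, beside 10.8% of all genes. At 72 h 0 were called, beside 2.35% of all genes, although the 3 above the receptor range had changes of -0.64 or lower. H2A pairs with H2B on the outer face of the nucleosome. H2ac10 (older name Hist1h2af) is shown with the 150 bases before its start at chr13:23533725-23533874 on the plus strand of GRCm38.p6, 5′ to 3′ along the gene, with motif letters in capitals; it holds 2 CCAAT matches, 1 on each strand.
H2ac10: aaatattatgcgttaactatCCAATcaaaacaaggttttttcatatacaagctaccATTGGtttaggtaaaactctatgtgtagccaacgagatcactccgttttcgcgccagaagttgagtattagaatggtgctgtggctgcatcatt
H2ac10 was 6.15, 6.65 and 7.33 on the sham 24 h arrays (lowest, median, highest) and 5.76, 5.99 and 6.69 on the MCAO 24 h arrays. The groups overlapped at their edges, with 4 of the 6 MCAO arrays below the lowest sham array. H2ac10 fell by 0.67 at 24 h (SE 0.22, 1.59-fold lower, adjusted p = 0.0302). At 72 h it was 6.42, 6.81 and 7.58 in sham and 5.85, 6.32 and 6.71 in MCAO. The 72 h change of -0.64 (SE 0.22, adjusted p = 0.147) was of like size and did not pass. The highest sham 72 h values were those of replicates 2 (7.58) and 3 (7.44). The 24 h call was lost without MCAO 24 h replicate 1, 3 or 4 or sham 24 h replicate 4 or 5, with an adjusted p of up to 0.0806.

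H2ac22 at both times and H2ac20 at 72 h had changes below 0 with wide spread, and neither passed at either time. H2ac22 (older name Hist1h2an), named because its mean was the highest of its class, was 6.93, 7.65 and 8.81 in sham and 5.53, 7.44 and 7.66 in MCAO at 24 h. Replicates 5 (6.35) and 6 (5.53) held the low end of the MCAO arrays, and the other 4 overlapped with sham. Its 24 h change was -0.84 (SE 0.34, adjusted p = 0.0813), and it was past the threshold without MCAO 24 h replicate 1 (-0.97, adjusted p = 0.0485) or sham 24 h replicate 3 (-1.02, adjusted p = 0.0404). The change was -0.55 without MCAO 24 h replicate 6 (adjusted p = 0.195), -0.32 without replicates 5 and 6 (adjusted p = 0.464) and 0.71 with the receptor covariate (adjusted p = 0.50). At 72 h it was 7.59, 7.83 and 9.14 in sham and 7.19, 7.32 and 7.64 in MCAO, a change of -0.76 (SE 0.34, adjusted p = 0.382). H2ac20 (older name Hist2h2ac), chosen after its values were seen, was 5.96, 6.91 and 8.37 in sham and 5.15, 5.93 and 6.34 in MCAO at 72 h. That change of -1.23 (SE 0.47, adjusted p = 0.239) had overlapping groups, and sham replicate 3 was the highest array for both genes. At 24 h H2ac20 was 5.55, 6.17 and 7.31 in sham and 3.53, 6.59 and 6.97 in MCAO, a change of -0.16 (SE 0.47, adjusted p = 0.848). Its sign turned without MCAO 24 h replicate 5 (0.36, adjusted p = 0.505) or sham 24 h replicate 5 (0.06, adjusted p = 0.952). The 72 h change of H2ac20 passed without MCAO 24 h replicate 5 (adjusted p = 0.0479), the array at 3.53 for this gene. The other 6 H2A genes all had means in the receptor range, and none was called.

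Among the 12 H2B genes, 2 fell and 1 rose at 24 h, beside 10.8% lower and 11.1% higher of all genes. At 72 h 3 of the 12 fell, beside 1.19% of all genes. H2bc13, H2bc4 and H2bc7 lie on chromosome 13. The promoters of H2bc13, H2bc7 and H2bc15 are printed to set side by side genes whose names RefSeq joins and whose values differed; H2bc18, the member that rose, is added. The windows are chr13:21716184-21716333 (minus strand), chr13:23574208-23574357 (minus), chr13:21753926-21754075 (plus) and chr3:96269550-96269699 (plus) of GRCm38.p6, each 5′ to 3′ along its gene with motif letters in capitals.
H2bc13: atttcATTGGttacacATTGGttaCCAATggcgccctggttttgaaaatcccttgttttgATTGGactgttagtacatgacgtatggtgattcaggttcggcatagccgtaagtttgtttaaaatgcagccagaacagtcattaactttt
H2bc7: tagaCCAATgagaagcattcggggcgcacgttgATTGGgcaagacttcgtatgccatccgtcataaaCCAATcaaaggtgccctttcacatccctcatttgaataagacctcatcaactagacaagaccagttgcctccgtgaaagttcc
H2bc15: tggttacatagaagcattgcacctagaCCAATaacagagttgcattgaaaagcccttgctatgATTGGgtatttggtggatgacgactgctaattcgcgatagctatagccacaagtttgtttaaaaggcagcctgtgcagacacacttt
H2bc18: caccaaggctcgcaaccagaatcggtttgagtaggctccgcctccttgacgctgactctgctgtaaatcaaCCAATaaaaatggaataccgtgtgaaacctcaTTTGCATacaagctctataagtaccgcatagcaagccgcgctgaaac
CCAAT matched 4 times in the H2bc13 window, 3 times in that of H2bc7, 2 times in that of H2bc15 and 1 time in that of H2bc18. The windows of H2bc3, H2bc14 and H2bc22, which were not called, also held 3 CCAAT matches each. The H2bc18 window holds TTTGCAT on the gene's strand, and the other windows printed here hold no match to it in these 150 bases. TTTGCAT was also found for H2bc3, H2bc6, H2bc8 and H2bc14, which were not called. A link between motifs and changes was not tested.

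H2bc13 (older name Hist1h2bl) had the smallest adjusted p of the members at both times. It was 9.09, 9.62 and 9.86 on the sham 24 h arrays and 8.59, 8.78 and 9.07 on the MCAO 24 h arrays. No MCAO array reached the lowest sham array. H2bc13 fell by 0.78 at 24 h (SE 0.12, 1.71-fold lower, adjusted p = 0.000119). At 72 h it was 9.37, 9.72 and 9.93 in sham and 8.58, 8.88 and 9.13 in MCAO. The groups again did not overlap, and it fell by 0.79 (SE 0.12, 1.73-fold lower, adjusted p = 0.000415). Its call held in 35 of 35 alternatives at 72 h and in 34 of 35 at 24 h. The exception was the receptor covariate, which gave -0.50 with an adjusted p of 0.241 at 24 h.

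H2bc4 (older name Hist1h2bc) was narrow in sham and broad in MCAO at 24 h. The sham 24 h arrays were at 10.59, 10.76 and 10.79 and the MCAO 24 h arrays at 9.47, 10.34 and 10.76. Replicate 5 was within the sham range, replicate 2 was the lowest array, and the other 4 lay below all sham arrays. H2bc4 fell by 0.45 at 24 h (SE 0.13, 1.37-fold lower, adjusted p = 0.0178). At 72 h it was 10.65, 10.84 and 10.97 in sham and 10.04, 10.31 and 10.40 in MCAO, with no overlap. It fell by 0.56 (SE 0.13, 1.47-fold lower, adjusted p = 0.0196). The 72 h call was lost without MCAO 72 h replicate 2 or 4 or sham 72 h replicate 2, at adjusted p values up to 0.0557. The receptor covariate gave -0.85 at 24 h (adjusted p = 0.0600).

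H2bc7 (older name Hist1h2bf) had the largest called fold of any member, in a scattered set of values. It was 4.88, 5.60 and 6.76 on the sham 72 h arrays and 3.98, 4.49 and 5.07 on the MCAO 72 h arrays. MCAO replicate 6 overlapped with sham replicates 3 and 5, and the other 5 MCAO arrays lay below all sham arrays. H2bc7 fell by 1.21 at 72 h (SE 0.30, 2.31-fold lower, adjusted p = 0.0284). At 24 h it was 4.55, 5.07 and 5.74 in sham and 4.09, 5.15 and 5.53 in MCAO, and the change was -0.15 (SE 0.30, adjusted p = 0.769). The difference between the times was -1.06 (95% interval -1.94 to -0.18, adjusted p = 0.187). The 72 h call was lost without MCAO 72 h replicate 2, 3 or 4 or sham 72 h replicate 2, 4 or 6. The largest of these adjusted p values was 0.0820, without sham 72 h replicate 2, where the change was -0.995.

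H2bc21 and H2bc15, both chosen after their values were seen, show the range among the H2B genes that were not called. H2bc21 (older name Hist2h2be) was 5.24, 5.51 and 5.65 on the sham 72 h arrays and 4.50, 4.86 and 5.08 on the MCAO 72 h arrays. The groups did not overlap, yet the change of -0.63 (SE 0.18, adjusted p = 0.0654) missed the threshold in the fit over 4 groups. It passed with the 72 h arrays fitted alone (adjusted p = 0.00207), where its SE was 0.09. The 72 h change also passed with array weights (adjusted p = 0.00738), the receptor covariate (0.0223) or dim genes left out (0.0332), and without some 24 h arrays. At 24 h the change was -0.38 (SE 0.18, adjusted p = 0.130). That change passed without MCAO 24 h replicates 5 and 6 (-0.54, adjusted p = 0.0454) or sham 24 h replicate 5 (-0.50, adjusted p = 0.0480). H2bc15 (older name Hist1h2bn) was 4.25, 5.44 and 6.00 in sham and 5.10, 5.29 and 6.00 in MCAO at 72 h, and the groups overlapped throughout. Its changes were -0.13 at 24 h (95% interval -0.63 to 0.37) and 0.08 at 72 h (-0.42 to 0.58).

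H2bc18 (older name Hist2h2bb) was the 1 member called higher, and its mean lay in the receptor range. It was 3.17, 3.40 and 3.57 on the sham 24 h arrays and 3.40, 3.61 and 4.19 on the MCAO 24 h arrays. Replicates 2 (4.19), 5 (4.13) and 6 (3.67) were above all sham arrays, and the other 3 overlapped. H2bc18 rose by 0.34 at 24 h (SE 0.12, 1.27-fold higher, adjusted p = 0.0438). At 72 h the change was -0.16 (SE 0.12, adjusted p = 0.831). The 24 h call was lost in 10 of 24 fits that left out 1 array: without MCAO 24 h replicate 2 or 5, MCAO 72 h replicate 1, 2, 4 or 5, or sham 24 h replicate 1, 3, 4 or 6. It was also lost without MCAO 24 h replicates 5 and 6 together (0.26, adjusted p = 0.135), and the receptor covariate brought the change to 0.05. None of the remaining 6 H2B genes was called.

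**Figure D3:**
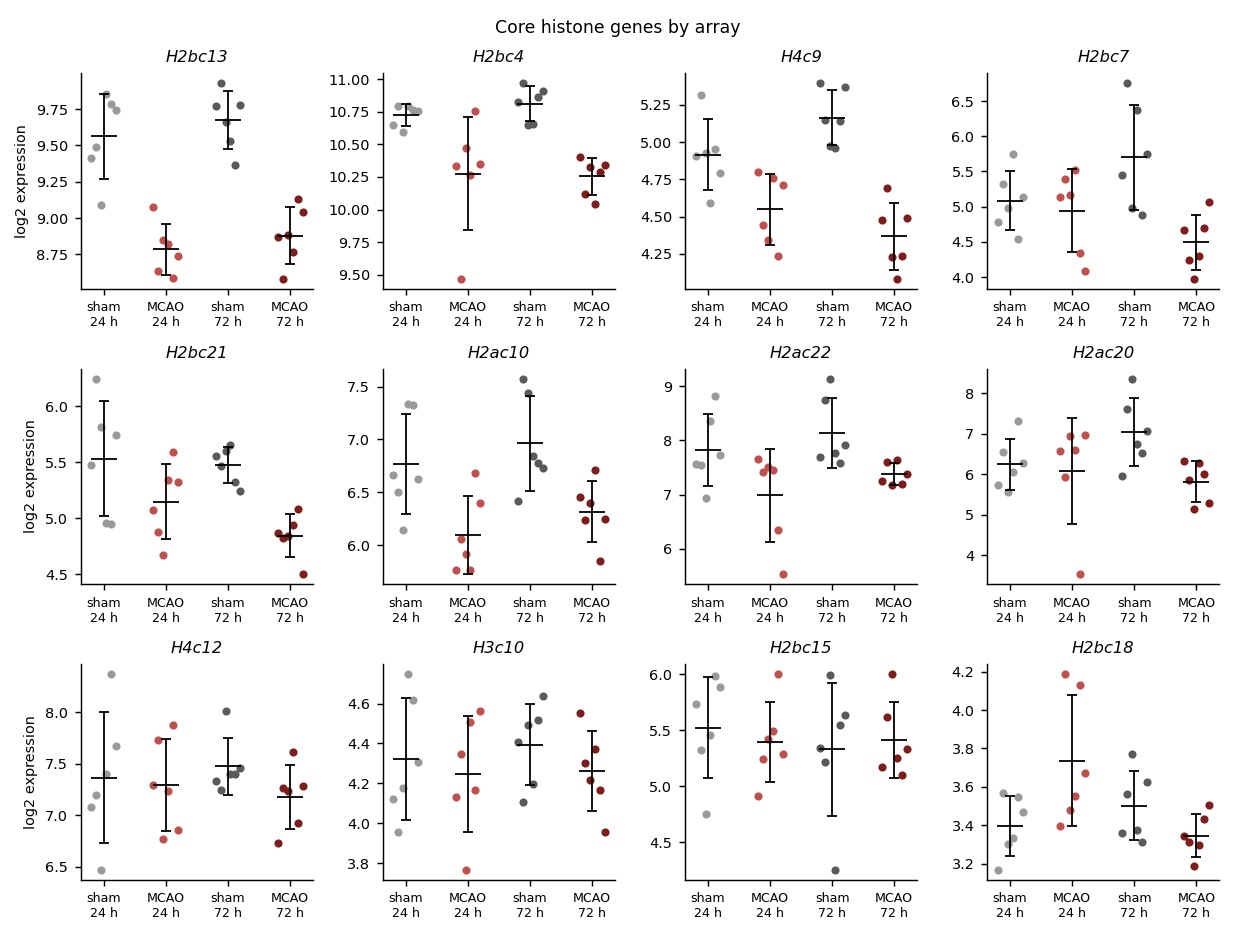
Log2 expression of 12 named members on each array, with 6 points a group and the mean with its SD in black. Each panel has its own vertical axis, which does not start at 0. For H2bc13 the MCAO and sham arrays do not overlap at either time, and for H4c9, H2bc4 and H2bc21 they do not overlap at 72 h.

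None of the 7 H3 genes was called at either time, beside 21.8% of all genes at 24 h and 2.35% at 72 h. H3 with H4 forms the centre of the nucleosome. H3c10, the member of highest mean in its class, was 4.11, 4.45 and 4.64 in sham and 3.96, 4.26 and 4.55 in MCAO at 72 h. The groups overlapped, and the changes were -0.07 at 24 h and -0.13 at 72 h (95% interval -0.42 to 0.16). The 7 changes ran from -0.15 to 0.08 at 24 h and from -0.17 to 0.02 at 72 h, and the bounds of their 95% intervals ran from -0.38 to 0.35 and from -0.48 to 0.26. The other 6 H3 genes had means in the receptor range.

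H4c9 fell at both times, beside 0.641% of all genes called lower at both, and the other 2 H4 genes were not called. H4c9 (older name Hist1h4i) has its promoter window at chr13:22041363-22041512 on the minus strand of GRCm38.p6. It is printed 5′ to 3′ along the gene with motif letters in capitals, as an H4 window that holds GGTCCG and no CCAAT. The window also holds the letters TATAAA, at -137 to -132 from the start.
H4c9: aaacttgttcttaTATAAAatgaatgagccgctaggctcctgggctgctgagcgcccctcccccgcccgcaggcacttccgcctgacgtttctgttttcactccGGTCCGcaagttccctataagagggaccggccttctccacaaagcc
H4c9 was 4.59, 4.92 and 5.32 on the sham 24 h arrays and 4.23, 4.58 and 4.80 on the MCAO 24 h arrays, and the groups overlapped. It fell by 0.37 at 24 h (SE 0.12, 1.29-fold lower, adjusted p = 0.0362). At 72 h it was 4.96, 5.15 and 5.40 in sham and 4.08, 4.35 and 4.69 in MCAO, with every MCAO array below every sham array. It fell by 0.80 (SE 0.12, 1.74-fold lower, adjusted p = 0.000473), and this call held in 35 of 35 alternatives. The 24 h call was lost without MCAO 24 h replicate 2, 3 or 5 or sham 24 h replicate 1, 2, 3 or 5, and without MCAO 24 h replicates 5 and 6 together (-0.33, adjusted p = 0.0766). With the receptor covariate the 24 h change was -0.22 (adjusted p = 0.673). H4c12, the H4 gene of highest mean, changed by -0.07 at 24 h (SE 0.24, adjusted p = 0.858) and -0.30 at 72 h (SE 0.24, adjusted p = 0.848). H4c8, chosen after its values were seen and dim on these arrays, was 0.16 higher at 24 h (SE 0.13, adjusted p = 0.408) and 0.22 lower at 72 h (change -0.22, SE 0.13, adjusted p = 0.632). Its 24 h change passed without MCAO 24 h replicate 6 (0.29, adjusted p = 0.0374) and without replicates 5 and 6 (0.38, adjusted p = 0.00563).

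Neighbouring members did not always have like changes, but in the unlike pairs given here a partner was dim. The 300-base windows of H2ac22 and H2bc22 overlap on opposite strands by 261 bases, those of H2bc8 and H2ac8 by 279 and those of H2bc1 and H2ac1 by 220. H2ac22 changed by -0.84 and -0.76 and its partner H2bc22, in the receptor range, by -0.15 and -0.04. RefSeq order put 14 pairs of members next to each other. H2ac20 and H2bc21, neighbours on chromosome 3, had 72 h changes of -1.23 and -0.63. H2bc8 and H2bc7, neighbours on chromosome 13, had 72 h changes of 0.08 and -1.21. H2bc8 (mean 3.89) was in the receptor range, as H2bc22 was, so a change in either may not be seen. By cluster, 4 of 25 members on chromosome 13 fell at each time, beside 10.8% of all genes at 24 h and 1.19% at 72 h. Of the 6 on chromosome 3, 1 rose at 24 h, beside 11.1% of all genes, and none was called at 72 h. Among those 6, H2ac21, H2bc18, H3c14 and H3c15 were in the receptor range. At 72 h the change was below 0 in 6 of 6 members on chromosome 3 (median -0.16) and in 21 of 25 on chromosome 13 (median -0.13).

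For the difference between the 72 h and the 24 h change, 0 of 31 members were called, beside 1.79% of all genes (0.991% higher and 0.800% lower), and 4 members had an unadjusted p under 0.05. The difference was below 0 in 25 members (80.6%), beside 52.2% of all genes. Those with such a p were H2bc18 (-0.49, adjusted p = 0.122), H2bc7, H4c9 (-0.43, adjusted p = 0.192) and H4c8 (-0.38, adjusted p = 0.278). Without MCAO 24 h replicates 5 and 6, H2bc7 (-1.42, adjusted p = 0.0465) and H4c8 (-0.60, adjusted p = 0.0132) passed, and without replicate 6 alone H4c8 passed. The 24 h and the 72 h changes share no arrays. They correlated over the 31 members at a Pearson r of 0.609 (Spearman rho 0.585) and over all 24011 genes at 0.493 (rho 0.328); genes are not independent replicates, and near-identical copies are among the 31. Between the sham groups, 0 of 31 members were called at 72 h against 24 h, beside 0.0208% of all genes (0.00833% higher and 0.0125% lower), and 0 had an unadjusted p under 0.05. The sham difference was below 0 in 13 members (41.9%), beside 52.4% of all genes. The largest sham difference was that of H2ac20, 0.80 higher at 72 h (95% interval -0.17 to 1.77).

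The genes that work with the core histones had fewer calls at 72 h than at 24 h, as all genes had. Of all genes, 11.1% were called higher and 10.8% lower at 24 h, and 1.17% and 1.19% at 72 h. The counts of the gene lists were not tested against these shares. Of 6 linker histone genes, which bind the DNA between nucleosomes, H1f2 rose at 24 h (0.53, SE 0.19, adjusted p = 0.0451) and none was called at 72 h. H1f4 was 4.48 to 5.39 on the sham 72 h arrays and 4.05 to 4.39 on the MCAO 72 h arrays. Those groups did not overlap, and its change of -0.61 (SE 0.17, adjusted p = 0.0622) did not pass. Of 9 replacement histone genes, which are expressed outside S phase as well, 1 rose and 3 fell at 24 h and 0 were called at 72 h. H2ax, whose protein is phosphorylated at DNA breaks, rose by 0.84 (SE 0.20, adjusted p = 0.00502), and Macroh2a1 (-0.50, adjusted p = 0.00559), H3f3b (-0.45, adjusted p = 0.0178) and Cenpa (-0.41, adjusted p = 0.0137) fell. The difference between the times passed for Macroh2a1 (0.69, adjusted p = 0.0413).

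Of 15 genes for histone mRNA transcription and processing, 3 fell at 24 h, beside 10.8% of all genes, and 0 were called at 72 h. Those were Ncbp2 (-0.66, adjusted p = 0.00116), a subunit of the cap-binding complex; Eri1 (-0.56, adjusted p = 0.00332), an exonuclease that trims histone mRNA ends; and Cpsf3 (-0.32, adjusted p = 0.0392), the endonuclease that cuts them. Slbp, the stem-loop binding protein, changed by -0.11 at 24 h and -0.16 at 72 h (adjusted p = 0.410 and 0.574). Npat, the activator of the histone clusters, changed by 0.20 and 0.22 (adjusted p = 0.469 and 0.877). Of 17 histone chaperone genes, Chaf1a rose (0.31, adjusted p = 0.0209) and Nap1l1 fell (-0.70, adjusted p = 0.000790) at 24 h, and Ipo4 rose at 72 h (0.43, adjusted p = 0.0373).

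Of 27 S phase genes, 1 rose and 5 fell at 24 h, beside 11.1% and 10.8% of all genes. At 72 h 0 of them were called, and their median change was -0.05. Tk1, a thymidine kinase (-0.51, adjusted p = 0.00172), E2f1, a factor that drives S phase genes (-0.44, adjusted p = 0.000525), Uhrf1, Mcm5 and Rrm1 fell, and Fen1, a nuclease of DNA replication, rose (0.61, adjusted p = 0.000750). Of 17 G2/M phase genes, 1 rose (Ttk) and 3 fell (Aurkb, Cdk1 and Ube2c) at 24 h and 0 were called at 72 h, with a median of -0.09. The group means of the G2/M list, 3.73 to 3.85, lay within the receptor range. Neither the S phase nor the G2/M list was filtered for dim genes, unlike the 13 members above that range. One library stood out in both lists: sham 72 h replicate 2 had an S phase mean of 4.57 and a G2/M mean of 4.31, and the other sham 72 h arrays lay at 4.32 to 4.37 and at 3.69 to 3.81. The same array was the highest of its group for 10 of 31 members, and replicates 1 and 3 for 7 each. The 10 included H2bc7 (6.76), H2ac10 (7.58), H2bc13 (9.93) and H2bc4 (10.97) but not H4c9 (5.15), H2bc21 (5.47) or H4c12 (7.25, the lowest of the group), and Mki67 was 5.29 on it against 3.94 to 4.17 on the other 5. Without it, H2bc13 and H4c9 were the members called at 72 h. Without it and 2 more arrays with high member values, sham 24 h replicate 5 and sham 72 h replicate 3, they were again H2bc13 (-0.73, adjusted p = 0.00590) and H4c9 (-0.85, adjusted p = 0.00277).

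**Figure D4:**
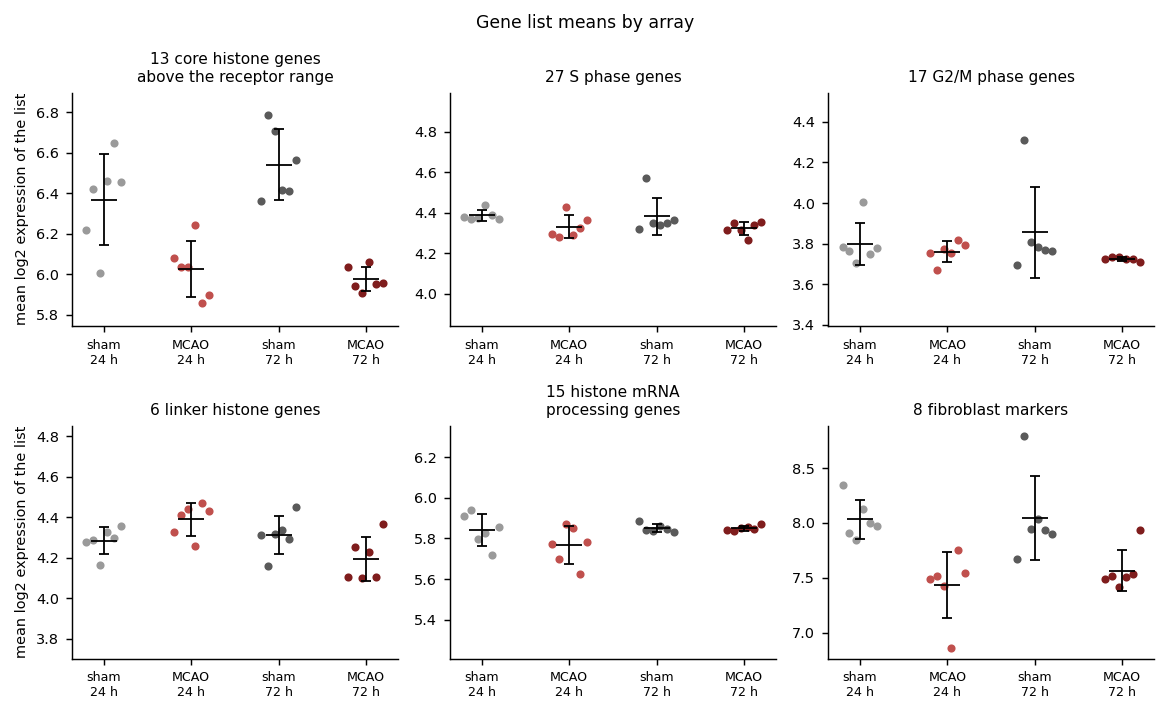
Mean log2 expression of the 13 members above the receptor range and of 5 related gene lists on each array, with 6 points a group and the mean with its SD in black. Vertical axes do not start at 0 and differ in range. Only the members were filtered for dim genes, so the sizes of their changes and those of the lists are not directly comparable. Over all 31 members the median change at 72 h was -0.14. The members' mean was 6.36 to 6.78 on the sham 72 h arrays and 5.91 to 6.06 on the MCAO 72 h arrays, and 1 sham 72 h array stands out in the G2/M list at 4.31.

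Markers of other cell types moved with the members in part. Beside the counts that follow, 11.1% of all genes were called higher and 10.8% lower at 24 h, and 1.17% and 1.19% at 72 h. Of 8 fibroblast markers, 5 fell at 24 h and 1 at 72 h, with medians of -0.63 and -0.56; those at 24 h were Col3a1, Lum, Col1a2, Col1a1 and Dpt. The lowest value in the whole table was 2.78, so a value above 0 does not show that a marker was detected. Their mean was 7.84 to 8.34 in sham and 6.86 to 7.75 in MCAO at 24 h, and 7.68 to 8.79 in sham and 7.41 to 7.94 in MCAO at 72 h. Col3a1, a fibrillar collagen gene, fell by 1.63 at 24 h and by 1.45 at 72 h. Of 10 macrophage markers, Cd163 rose at 24 h (0.66) and Folr2 fell at 24 h (-0.63) and 72 h (-1.21), 1 gene in each case, with medians of -0.24 and -0.25. The mean of the macrophage list was highest on sham 72 h replicate 2 (7.70), as was that of the fibroblast list (8.79). Of 10 cardiomyocyte markers, 3 fell at 24 h and 0 were called at 72 h, with medians of -0.11 (8 of 10 below 0) and -0.16 (9 of 10 below 0). The lists of endothelial (7 genes), lymphocyte (7), neutrophil (7) and erythroid (4) markers had 2, 1, 1 and 1 genes that rose and 1, 0, 0 and 1 that fell at 24 h. At 72 h, 1 endothelial gene rose and 1 fell, 1 lymphocyte gene fell, and 0 genes of the neutrophil and erythroid lists were called. The group means of the neutrophil list (3.70 to 3.83) and the lymphocyte list (3.82 to 3.99) lay within or near the receptor range. The part of any of these cell types in the members' changes was not tested.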

How the data were processed

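The authors deposited 1 table of log2 expression values for 24 arrays, with no summarisation or log base stated by the labels; the log2 unit was read from the values (2.78 to 13.5), and 23 of 24 columns had the same sorted values as each other, as after quantile normalization. HOMER is named in the submitters' processing notes, with no role. The labels' protocols give Trizol extraction and biotin labelling by the standard Affymetrix method. Groups came from the treatment and time labels. The platform annotation gave 24015 of 24973 identifiers 1 symbol (958 unnamed), for 24011 genes, with the identifier of the highest mean kept; all 31 members matched RefSeq by gene ID.

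One linear model of 4 group means was fitted to all genes with limma 3.58.1 (R 4.3.3), with 20 residual degrees of freedom, moderated two-sided tests and Benjamini-Hochberg adjustment over all genes; the number of arrays limits the precision. The fit was tested on simulated data. Members named are those past an adjusted p of 0.05 in any comparison, those of highest mean in each class, and 4 chosen after their values were seen. Of each related list, the counts and the genes of smallest p are given; Slbp, Npat, Mki67 and called genes beyond the first 3 of a list were named after their values were seen. The members and lists were chosen with earlier results of these data known, among them the receptor range, the arrays doubted at 24 h and the receptor covariate. Alternatives were the prior, normalization, a filter on dim genes, identifiers, array weights, the replicate block, the arrays in the fit and the receptor covariate; the setting without 3 sham arrays was chosen after seeing the data. Promoter windows are from RefSeq (27 of 31 members), searched with Python 3.11.15. H2bc4, H2bc21, H3c1 and H3c7 have no entry there.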

Additional observations from a re-analysis of the deposited data

Results flagged for a closer look

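Of 56 sets of 6 arrays examined (13 named members and the mean of all members in 4 groups), 4 had 1 array far from the rest by Dixon's criterion, which chance meets in about 1 of 20. H4c12 was 8.02 on sham 72 h replicate 3, against 7.25 to 7.46 on the other arrays of that group. H2ac20 was 3.53 on MCAO 24 h replicate 5, against 5.93 to 6.97. H4c8 was 3.85 on MCAO 72 h replicate 6, against 3.59 to 3.67. The mean of all 31 members was 4.61 on MCAO 24 h replicate 4, against 4.42 to 4.48.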

How the results depend on the processing

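Each result was recomputed under 35 alternatives, 24 of which left out 1 array. No called change of a member turned its sign. The 24 h count of 5 members became 2 with array weights, 1 with the 24 h groups alone and 0 with the receptor covariate, and was 3 to 7 with 1 array left out. Of all genes, 13.6% were called at 24 h with array weights, 9.14% with the 24 h groups alone and 1.32% with the receptor covariate. The 72 h count of 4 became 8 with array weights and 2 without the 3 sham arrays, and was 2 to 6 with 1 array left out. Of all genes, 7.93% were called at 72 h with array weights and 1.43% without the 3 sham arrays. The count of 0 for the difference between the times became 2 without MCAO 24 h replicates 5 and 6 and 1 when arrays were weighted, and was 0 to 1 with 1 array left out; the sham count was 0 to 0. The cause of these moves was not tested. Fits with fewer arrays have fewer degrees of freedom, and the counts moved both up and down. The median of the members was -0.22 at 24 h and -0.63 at 72 h once dim genes were left out, which keeps 13 members. Over all genes, array weights gave 3259 calls at 24 h and 1905 at 72 h, against 5237 and 565. With the replicate number as a block, 5, 4, 0 and 0 members were called, the same members as without it. The numbers gave no clear sign of pairing: 1 of 12 same-numbered pairs had deviations correlated over 0.1 (range -0.07 to 0.14). Low correlations cannot exclude that same-numbered arrays were handled together. The median SD of a gene about its group means was 0.192 over the arrays taken at 24 h and 0.116 over those taken at 72 h, so a shared spread is wide for the 72 h comparison and narrow for the 24 h one.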
